A study of Mus musculus with 16 samples.

Results

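The 39 interferon-stimulated genes described here were measured in macrophages sorted from mouse pancreas, and they were matched by gene name to the probes of a whole-genome array with the brightest probe standing for a gene. All 39 were on the array and all 39 passed the filter on dim probes, among 24307 genes tested of 31044 gene names. They comprise 10 genes of the type I type (the Ifit, Mx and Oas families), 10 of the interferon gamma type (guanylate-binding proteins, immunity-related GTPases and Irf1), 4 genes of signalling and feedback, 4 sensors of nucleic acids and 11 other effectors.

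The cells were obtained by flow sorting of pancreatic tumors or of pancreas without tumor, and their RNA was hybridised to 16 one-color arrays. Tumor tissue gave 5 arrays of YFP+ macrophages and 5 of YFP- macrophages, and pancreas without tumor gave 3 of YFP+ and 3 of YFP-. The number in a sample's title was taken to be its mouse, so that each of 5 mice with a tumor and 3 mice with normal pancreas gave both populations. The mice are female, 8 to 10 weeks old and on a C57/B6 background, and their genotype is labelled as not provided. The series text names wild-type, KPC and FLT3-CRE/LSL-YFP mice, whereas the treatment protocol speaks of implanted tumors, so the tumor model of a given mouse is unclear. YFP marks cells whose ancestors expressed Flt3, a receptor of early blood progenitors, because Cre under the control of that gene removes a stop in front of the reporter for good. YFP- cells lack the mark, which can also reflect a reporter that was not switched on.

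Cells answer type I interferons (alpha and beta) through the receptor Ifnar1/Ifnar2 and a complex that holds Stat2 and Irf9, which binds interferon-stimulated response elements (ISREs) at genes for antiviral proteins. Interferon gamma, made by T and NK cells, acts through Ifngr1/Ifngr2 and on gamma-activated sites (GAS) at genes such as Irf1 and those of the guanylate-binding proteins, a response for which macrophages are well known. Many genes answer both, so the names of the lists mark the better known inducer and not an exclusive one.

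Promoters carry the sequence features by which the classes are usually told apart, so those of members that differed between tissues and hold a match are shown with the matches in capitals. RefSeq promoters (build GRCm38.p6) running from 250 bases before to 50 bases after a start were at hand for 30 of the 39 members. Each line gives the bases upstream of the most upstream listed start, 5′ to 3′, for Ifit3 (chr19:34583279-34583528, plus strand), Ifit1 (chr19:34640739-34640888, plus strand), Gbp3 (chr3:142559894-142560043, plus strand), Igtp (chr11:58199406-58199555, plus strand), Irf1 (chr11:53769864-53770013, plus strand) and Isg20 (chr7:78913274-78913423, plus strand).
Ifit3: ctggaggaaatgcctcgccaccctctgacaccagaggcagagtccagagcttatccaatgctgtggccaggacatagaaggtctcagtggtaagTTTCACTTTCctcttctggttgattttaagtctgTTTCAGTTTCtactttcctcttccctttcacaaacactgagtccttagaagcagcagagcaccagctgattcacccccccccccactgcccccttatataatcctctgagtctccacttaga
Ifit1: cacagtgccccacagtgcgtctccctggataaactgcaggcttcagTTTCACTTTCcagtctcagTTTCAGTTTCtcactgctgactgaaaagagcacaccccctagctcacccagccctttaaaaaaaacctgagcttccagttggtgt
Gbp3: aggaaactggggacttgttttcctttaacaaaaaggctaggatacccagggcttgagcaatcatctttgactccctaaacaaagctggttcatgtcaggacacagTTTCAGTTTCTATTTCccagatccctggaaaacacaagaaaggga
Igtp: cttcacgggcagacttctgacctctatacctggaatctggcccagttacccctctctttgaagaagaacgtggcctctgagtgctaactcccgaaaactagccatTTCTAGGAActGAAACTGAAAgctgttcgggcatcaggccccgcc
Irf1: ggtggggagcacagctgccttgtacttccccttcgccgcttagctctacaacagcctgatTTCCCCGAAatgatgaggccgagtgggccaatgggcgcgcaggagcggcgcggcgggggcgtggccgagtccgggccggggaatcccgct
Isg20: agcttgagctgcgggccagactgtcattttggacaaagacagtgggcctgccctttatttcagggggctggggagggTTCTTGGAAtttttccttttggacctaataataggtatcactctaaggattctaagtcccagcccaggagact
The ISRE type motif searched was GAAA, any 2 bases, GAAA, on either strand, and TTTC runs on the printed strand are its reverse. The GAS type motif was TTCNNNGAA, which reads the same on both strands. Ifit3 and Ifit1 hold 2 ISRE type matches each, Gbp3 holds 2 that overlap, Igtp holds a GAS type match just ahead of an ISRE type match, and Irf1 and Isg20 hold a GAS type match. Of the 30 members 18 (60%) have an ISRE type match, against 3.99% of 27025 genes with a promoter of the same length. A GAS type match was found in 10 members (33.3%), against 9.55% of all genes, and 6 members hold both motifs.

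Both motifs were found in both classes. Of the 7 type I type members with a promoter, 4 hold an ISRE type and 2 a GAS type match, and of the 8 interferon gamma type members, 6 hold an ISRE type and 4 a GAS type match. Of the 9 members with a promoter that were lower in tumor in at least 1 population, 4 hold an ISRE type match, as do 14 of the 21 others. Neither motif was found in 4 of the 9 and in 4 of the 21. The 9 are a part of the 14 members that were lower, because Mx1, Oas2, Usp18, Rtp4 and Dhx58 had no promoter sequence at hand. A match is a run of letters and not a bound site, and no match says only that these letters are not in this window.

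Values below are log2 signals relative to the 75th percentile of an array, so that 0 stands for that percentile, and a difference of 1 is a doubling. Genes were called at an adjusted p under 0.05 (limma over all genes, Benjamini-Hochberg adjustment, two-sided), and errors of differences are standard errors. In bulk RNA, fewer cells of a type and less RNA per cell cannot be told apart. Between 64.9% and 75.4% of the spots of an array were well above background, and the arrays fill 4 slides on which the groups are mixed.

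Macrophages from tumors had lower signals of many interferon-stimulated genes than macrophages from normal pancreas, in both populations. In YFP+ cells 10 members fell and 1 rose, where 6.52% of all genes fell and 5.73% rose. In YFP- cells 11 fell and 0 rose, where 8.46% of all genes fell and 7.62% rose. The member median was -0.51 in YFP+ and -0.61 in YFP- cells, against -0.07 and -0.19 for all genes, and 32 and 37 of the 39 differences were negative, against 56% and 61% of all genes. The arrays of tumor lay wholly below those of normal pancreas for 11 members in YFP+ cells (12.7% of all genes) and for 12 in YFP- cells (10.6%), and wholly above for 1 in each (9.49% and 9.15%). At an unadjusted p under 0.05 there were 18 members in YFP+ cells (24.1% of all genes) and 20 in YFP- cells (30.5%).

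Ifit3, Mx1, Oas2, Irf1, Usp18, Rtp4 and Xaf1 fell in both populations. These 7 are 70% of the members that fell in YFP+ cells and 63.6% of those that fell in YFP- cells. Of all genes tested, 1006 (4.14%) fell in both, where 1584 fell in YFP+ and 2056 in YFP- cells. A fall in both was thus common among all genes that fell. The counts depended on single arrays. Against the 10 that fell in YFP+ cells, 4 fell without the YFP+ array of normal mouse 23912, 5 without that of normal mouse 23916 or tumor mouse 23550, and 6 without that of tumor mouse 23547. Against the 11 that fell in YFP- cells, without the array of normal mouse 23916 or 23917 in YFP- cells 5 fell in each case. The 7 that fell in both became 4 without the normal array of mouse 23912 or 23916 in YFP+ cells, or of mouse 23916 or 23917 in YFP- cells.

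**Figure D1:**
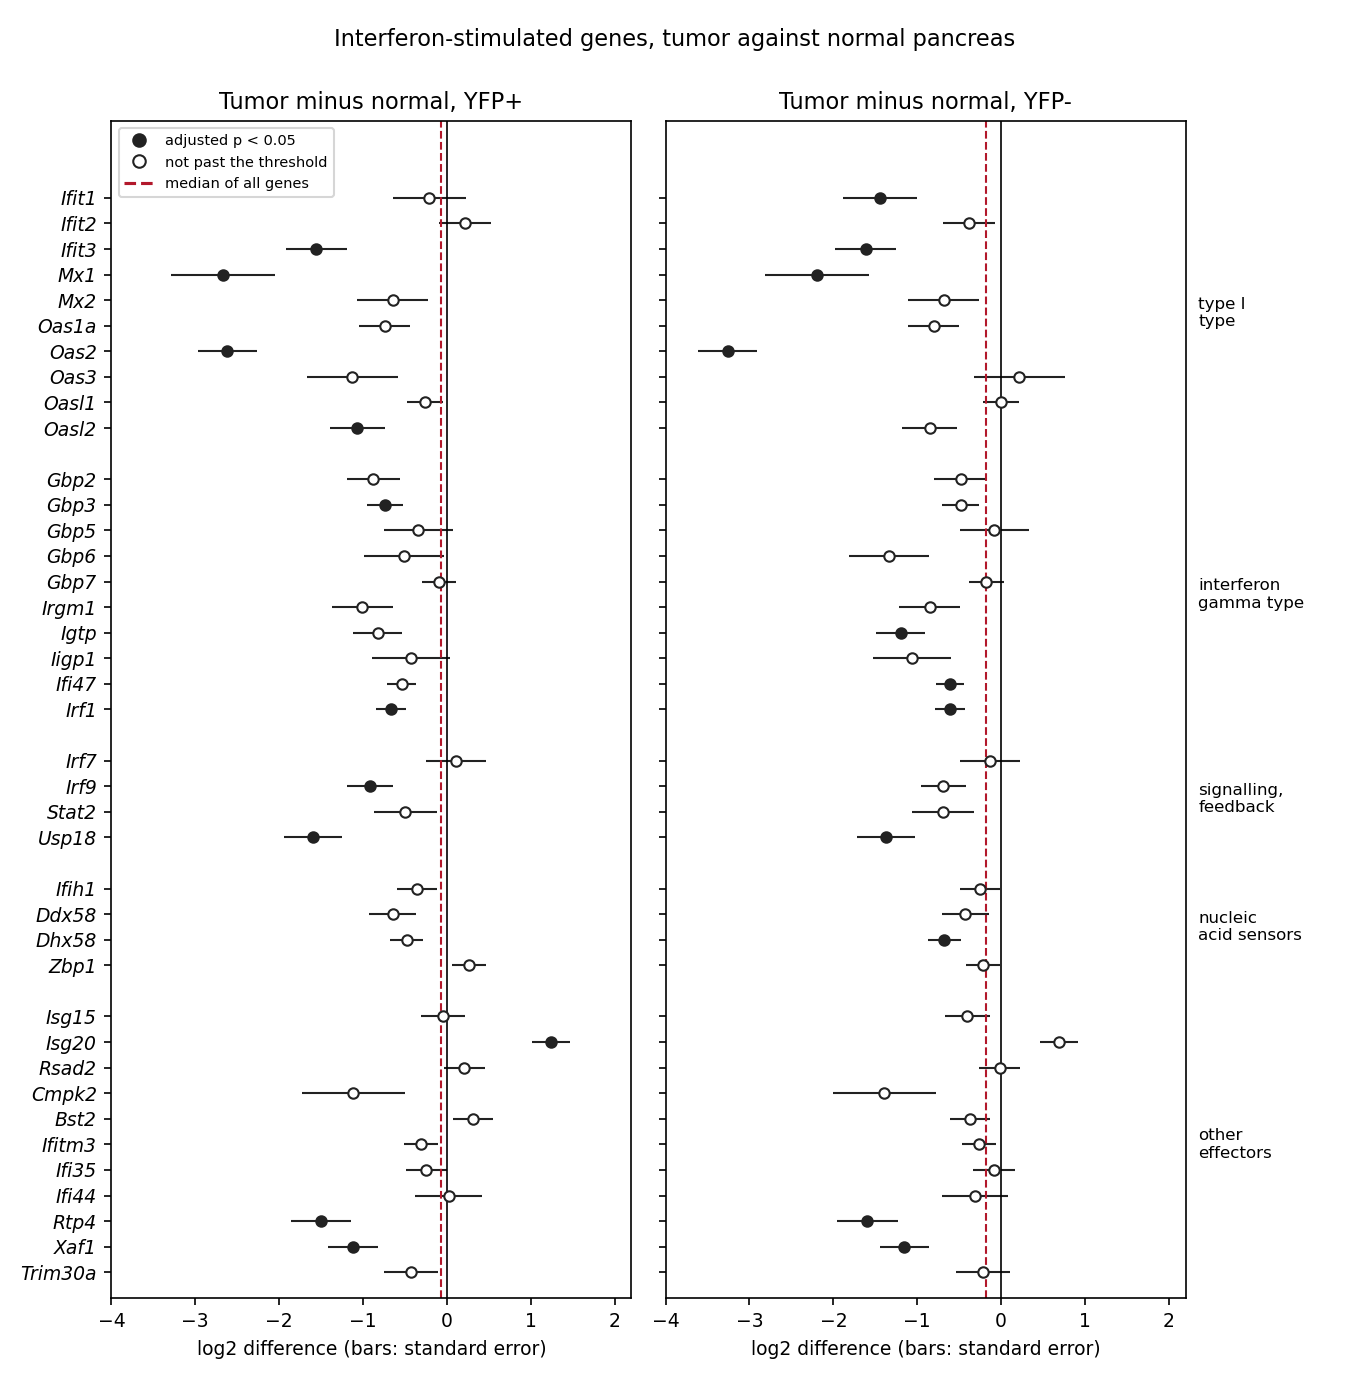
Log2 difference between tumor and normal pancreas (horizontal axis) of the 39 interferon-stimulated genes, in YFP+ cells (left) and YFP- cells (right), ordered by role. Points are limma estimates, bars are standard errors, filled points passed the threshold and the dashed line is the median of all genes; most points lie left of it, and Oas2, Mx1, Ifit3, Usp18, Rtp4, Xaf1 and Irf1 are filled in both panels.

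Among the type I type genes, Oas2 and Mx1 showed the largest falls of all members by the brightest probe of each gene. Oas2, whose enzyme makes 2′-5′ oligoadenylates that activate the nuclease RNase L, read -1.05, -0.87, -1.63, -1.48 and -1.58 in tumor YFP+ cells, against 1.27, 1.62 and 1.0 in normal YFP+ cells. It read -0.35, -2.01, -0.98, -1.92 and -1.39 in tumor YFP- cells, against 1.37, 2.14 and 2.29 in normal YFP- cells. All arrays of tumor lay below all arrays of normal pancreas, with more than 1 log2 unit between the groups in either population. The difference was -2.62 ± 0.35 in YFP+ cells (6.14-fold lower, adjusted p = 0.000206) and -3.26 ± 0.35 in YFP- cells (9.58-fold lower, adjusted p = 2.53e-05). Its probe lies at chr5:121180343-121180402 on build mm9, in a stretch of chromosome 5 that also holds Oas1a and Oas3.

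Mx1, a gene of the dynamin-like GTPases, read -3.29, -2.35, -3.02, -4.41 and -3.16 in tumor YFP+ cells, against 0.51, -0.67 and -1.56 in normal YFP+ cells. It read -2.28, -2.25, -2.81, -4.88 and -3.57 in tumor YFP- cells, of which 4 of 5 arrays were above background, against -0.23, -1.51 and -1.14 in normal YFP- cells. The groups did not overlap, and mouse 23551 was lowest in both tumor populations. Mx1 differed by -2.67 ± 0.62 in YFP+ cells (adjusted p = 0.0105) and by -2.20 ± 0.62 in YFP- cells (adjusted p = 0.0269). Its neighbour on chromosome 16, Mx2, did not pass (-0.65 ± 0.42 and -0.69 ± 0.42, adjusted p = 0.401 and 0.287).

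Ifit3, of the family of proteins with tetratricopeptide repeats that bind viral RNA, read -0.82, -0.01, -0.94, -1.86 and -1.10 in tumor YFP+ cells, against 0.52, 1.03 and 0.29 in normal YFP+ cells. It read -0.27, -0.14, -0.31, -0.38 and -0.61 in tumor YFP- cells, against 0.42, 1.72 and 1.67 in normal YFP- cells. Again no array of tumor reached the lowest array of normal pancreas. The difference was -1.56 ± 0.36 in YFP+ cells (adjusted p = 0.0105) and -1.62 ± 0.36 in YFP- cells (adjusted p = 0.00724). This is the gene whose promoter with 2 ISRE type matches is printed above.

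The other Ifit genes were dim. Ifit1, which binds RNA lacking a methylated cap, averaged -3.68 ± 0.56 in tumor YFP+ cells (SD, n = 5) and -3.47 ± 0.41 in normal YFP+ cells (SD, n = 3), with overlapping arrays. It averaged -4.57 ± 0.82 in tumor YFP- cells, where it was above background on 1 of 5 arrays, and -3.13 ± 0.50 in normal YFP- cells, where it was above background on 3 of 3. That difference of -1.44 ± 0.44 passed (adjusted p = 0.0365), the arrays overlapped, and it was -0.11 ± 0.26 with another background correction (adjusted p = 0.827). Ifit2 was above background on 1 of 5 tumor YFP- arrays and did not pass in either population.

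Of the remaining Oas genes, Oasl2, an Oas-like protein, passed in YFP+ cells, at -0.24 ± 0.57 in tumor and 0.82 ± 0.34 in normal pancreas (SD, n = 5 and 3; difference -1.07 ± 0.33, adjusted p = 0.0484). Its arrays overlapped, and it missed the threshold in 12 of the 16 fits without 1 array. In YFP- cells Oasl2 differed by -0.85 ± 0.33 (adjusted p = 0.0967). Oas1a, another 2′-5′ oligoadenylate synthetase, differed by -0.74 ± 0.30 and -0.80 ± 0.30 (adjusted p = 0.136 and 0.0847). Oas3 differed by -1.13 ± 0.54 in YFP+ and 0.22 ± 0.54 in YFP- cells, and Oasl1 by -0.26 ± 0.22 and -0.00 ± 0.22, and neither passed.

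**Figure D2:**
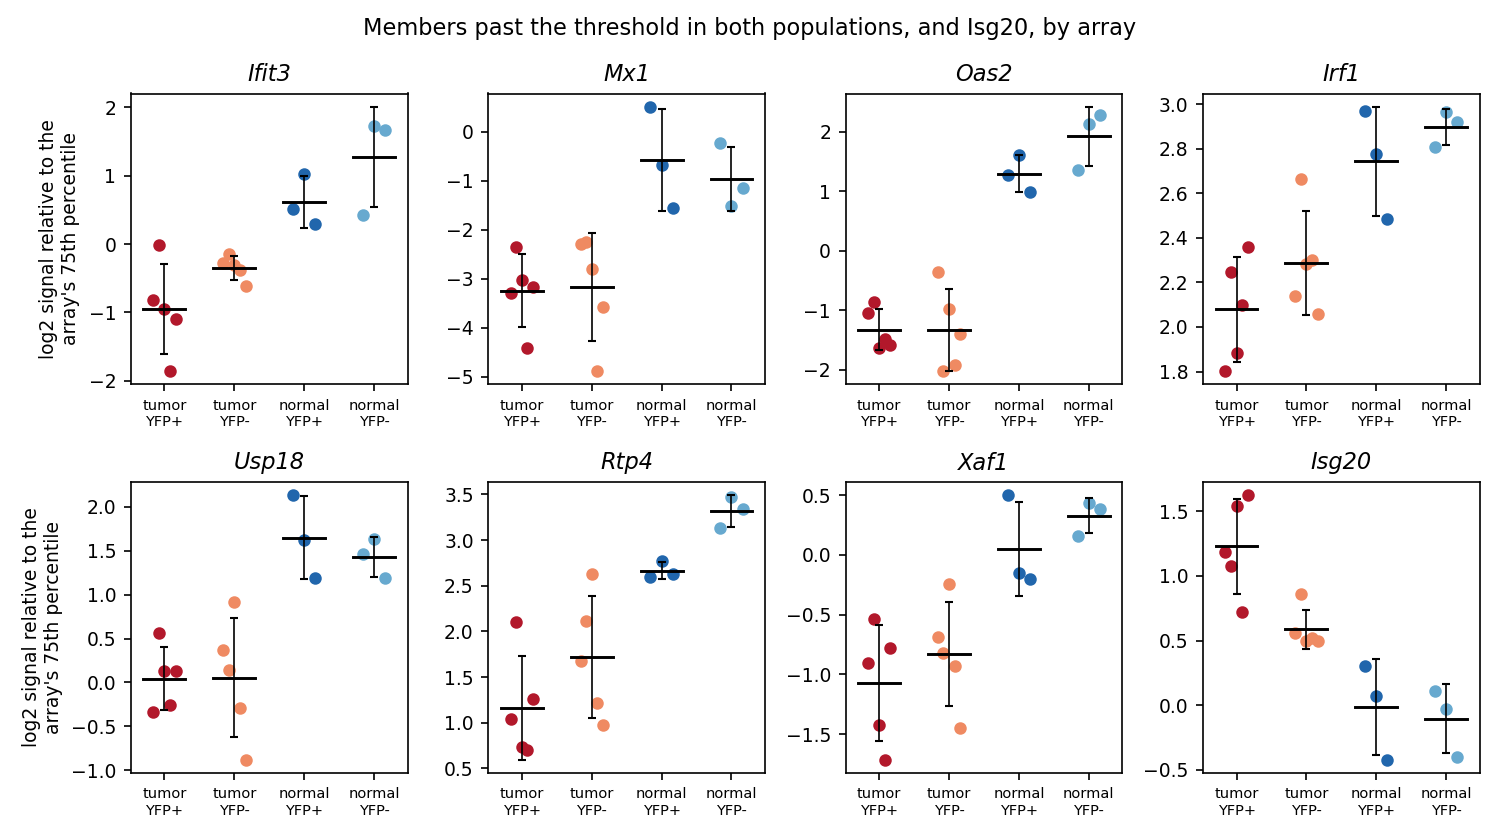
Log2 signal relative to the array's 75th percentile (vertical axis) of the 7 members lower in tumor in both populations and of Isg20, in tumor YFP+ (n = 5), tumor YFP- (n = 5), normal YFP+ (n = 3) and normal YFP- cells (n = 3). Points are arrays, lines are means and bars are SDs; for each of the 8 genes the tumor and normal arrays of a population do not overlap, and Isg20 is the gene that lies higher in tumor.

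Of the 10 type I type genes, 9 differences were negative and 4 passed in each population. Of all genes, 56% were negative in YFP+ and 61% in YFP- cells, and 6.52% and 8.46% fell. Among the interferon gamma type genes, all 10 differences were negative in both populations, and 2 passed in YFP+ and 3 in YFP- cells. Irf1, the transcription factor that interferon gamma induces early, was the one that passed in both. It read 1.80, 2.25, 1.88, 2.10 and 2.36 in tumor YFP+ cells, against 2.97, 2.77 and 2.48 in normal YFP+ cells. It read 2.14, 2.67, 2.28, 2.30 and 2.06 in tumor YFP- cells, against 2.81, 2.96 and 2.92 in normal YFP- cells. The groups did not overlap, and the differences were small, at -0.66 ± 0.18 (adjusted p = 0.0270) and -0.61 ± 0.18 (adjusted p = 0.0346).

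A second Irf1 probe gave a larger difference. It lies at chr11:53591817-53591876 on build mm9, against chr11:53590746-53590805 for the brightest one. It averaged -0.35 ± 0.22 in tumor YFP+ cells (SD, n = 5) and 2.18 ± 0.41 in normal YFP+ cells (SD, n = 3), and -0.41 ± 0.69 in tumor YFP- cells and 2.09 ± 0.21 in normal YFP- cells. With each of 30347 probes tested separately, a fit chosen after the values were seen, this probe differed by -2.53 ± 0.32 in YFP+ cells (adjusted p = 0.000122) and by -2.50 ± 0.32 in YFP- cells (adjusted p = 0.000111). Both probes were above background on all 16 arrays and had the same direction, so the direction for Irf1 does not depend on the probe and the size does.

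Of the 4 immunity-related GTPases, which act on the membranes around intracellular parasites and bacteria, 0 passed in YFP+ cells and 2, Igtp and Ifi47, fell in YFP- cells. Igtp averaged -2.01 ± 0.51 in tumor YFP- cells (SD, n = 5) and -0.82 ± 0.45 in normal YFP- cells (SD, n = 3) and fell by 1.20 ± 0.29 (adjusted p = 0.0125). In YFP+ cells Igtp had a difference of -0.83 ± 0.29 (adjusted p = 0.0880). Ifi47 averaged 1.53 ± 0.26 in tumor YFP- cells and 2.14 ± 0.26 in normal YFP- cells, a difference of -0.61 ± 0.17 (adjusted p = 0.0231), and missed the threshold narrowly in YFP+ cells (-0.54 ± 0.17, adjusted p = 0.0506). Arrays of these 2 genes did not overlap between tissues in either population.

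Irgm1, which guards against mycobacteria and is tied to autophagy, did not pass by its brightest probe, with -1.01 ± 0.36 in YFP+ cells (adjusted p = 0.0895) and -0.85 ± 0.36 in YFP- cells (adjusted p = 0.127). Its arrays nevertheless did not overlap, at -2.49 to -0.63 in tumor YFP+ cells and -0.36 to 0.32 in normal YFP+ cells, and at -1.32 to -0.64 in tumor YFP- cells and -0.35 to 0.15 in normal YFP- cells. By its brightest probe Iigp1 had differences of -0.43 ± 0.46 and -1.06 ± 0.46 and did not pass (adjusted p = 0.658 and 0.137). Another Iigp1 probe, above background on 13 arrays, gave larger differences, of -1.38 in YFP+ and -1.78 in YFP- cells. The direction for Iigp1 was thus the same with either probe, and the size was not. Another Irgm1 probe, above background on 16 arrays, gave differences of -0.80 in YFP+ and -0.99 in YFP- cells. Errors and p-values of these other Iigp1 and Irgm1 probes are not reported here.

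Of the 5 guanylate-binding proteins, GTPases that coat intracellular bacteria and assist inflammasomes, 1 fell in YFP+ cells and 0 passed in YFP- cells. Gbp3 averaged -1.56 ± 0.34 in tumor YFP+ cells (SD, n = 5) and -0.82 ± 0.31 in normal YFP+ cells (SD, n = 3), and its difference of -0.74 ± 0.22 passed (adjusted p = 0.0372) although 1 slide showed a difference of 0.09. In YFP- cells Gbp3 differed by -0.48 ± 0.22 (adjusted p = 0.147). Gbp2, Gbp5, Gbp6 and Gbp7 did not pass in either population, with differences between -1.34 and -0.08, and Gbp6 was above background on 3 of 5 tumor YFP+ and 1 of 5 tumor YFP- arrays.

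By their means, both lists lay lower in tumor, without overlap between arrays of the tissues. The 10 type I type genes averaged -1.62 ± 0.35 in tumor YFP+ cells (SD, n = 5), -1.51 ± 0.36 in tumor YFP- cells (n = 5), -0.55 ± 0.32 in normal YFP+ cells (n = 3) and -0.41 ± 0.10 in normal YFP- cells (n = 3). The 10 interferon gamma type genes averaged -0.44 ± 0.08 in tumor YFP+ cells, -0.45 ± 0.17 in tumor YFP- cells, 0.16 ± 0.09 in normal YFP+ cells and 0.24 ± 0.11 in normal YFP- cells. The median difference was -0.90 in YFP+ and -0.83 in YFP- cells for the type I type, and -0.60 and -0.61 for the interferon gamma type. The mean of the first list minus that of the second averaged -1.17 ± 0.34 in tumor YFP+ cells and -0.71 ± 0.23 in normal YFP+ cells, and -1.06 ± 0.26 in tumor YFP- cells and -0.65 ± 0.16 in normal YFP- cells (SD). It ran from -1.67 to -0.72 in tumor YFP+ cells and from -0.97 to -0.51 in normal YFP+ cells, and from -1.39 to -0.81 in tumor YFP- cells and from -0.83 to -0.55 in normal YFP- cells. It was thus lower on average in tumor in both populations, with ranges that overlapped, narrowly so in YFP- cells. Whether the lists shifted unequally was not tested.

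**Figure D3:**
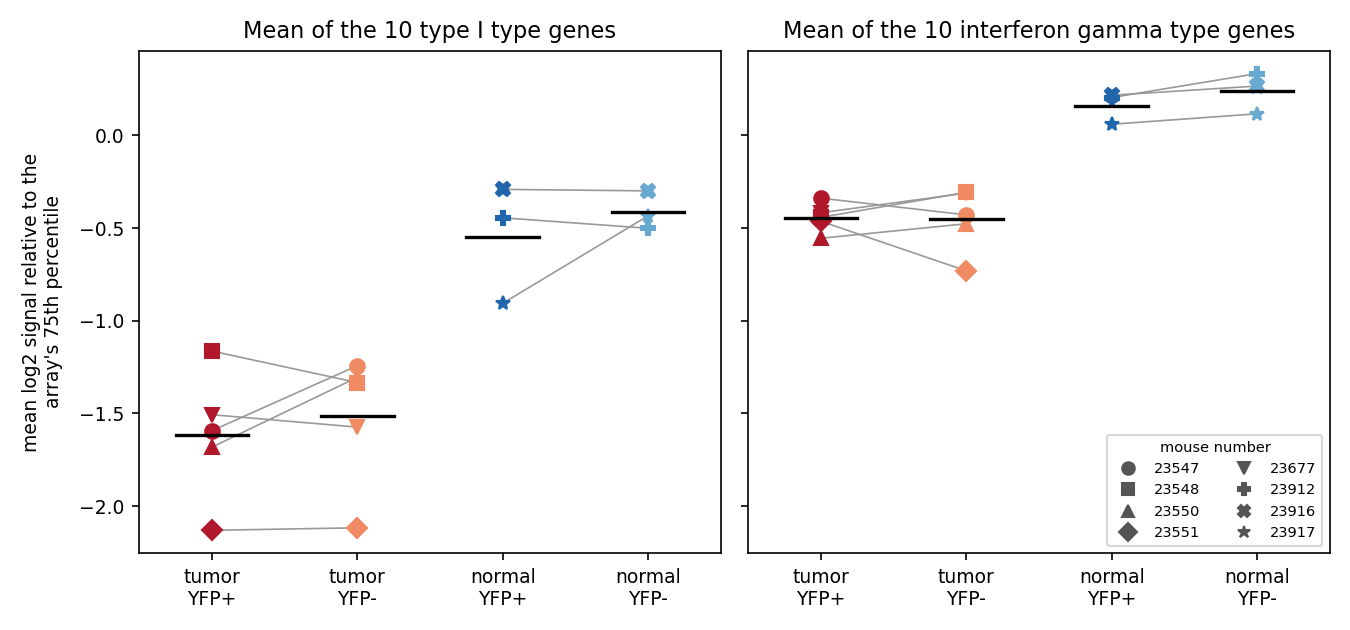
Mean log2 signal relative to the array's 75th percentile (vertical axis) of the 10 type I type genes (left) and the 10 interferon gamma type genes (right) on each array, with the tumor populations left of the normal ones. Symbols are mouse numbers, grey lines join arrays of a mouse and black lines are group means; the tumor arrays lie below the normal arrays of the same population for both lists.

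Genes of signalling and feedback gave 2 falls in YFP+ cells and 1 in YFP- cells. Usp18, a protease that takes the ubiquitin-like Isg15 off proteins and dampens signalling at Ifnar2, read -0.34, 0.56, 0.13, -0.26 and 0.13 in tumor YFP+ cells, against 2.13, 1.62 and 1.18 in normal YFP+ cells. It read 0.37, 0.15, 0.91, -0.29 and -0.88 in tumor YFP- cells, against 1.46, 1.63 and 1.19 in normal YFP- cells. No tumor array overlapped a normal array of its population, and the differences were -1.60 ± 0.35 (adjusted p = 0.00636) and -1.37 ± 0.35 (adjusted p = 0.0141).

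Irf9, the DNA-binding partner of Stat2, averaged 0.85 ± 0.32 in tumor YFP+ cells (SD, n = 5) and 1.77 ± 0.19 in normal YFP+ cells (SD, n = 3; difference -0.92 ± 0.27, adjusted p = 0.0392). In YFP- cells Irf9 differed by -0.69 ± 0.27 and did not pass (adjusted p = 0.103). Stat2 (-0.49 ± 0.37 and -0.69 ± 0.37) and Irf7, the factor that amplifies type I interferon production (0.11 ± 0.36 and -0.13 ± 0.36), did not pass.

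Among the sensors of nucleic acids, Dhx58, a helicase that tunes the RNA sensors, averaged -0.34 ± 0.27 in tumor YFP- cells (SD, n = 5) and 0.34 ± 0.08 in normal YFP- cells (SD, n = 3; difference -0.68 ± 0.20, adjusted p = 0.0328). In YFP+ cells Dhx58 differed by -0.48 ± 0.20 (adjusted p = 0.149). The RNA helicases Ifih1 and Ddx58 and the Z-form nucleic acid sensor Zbp1 did not pass, with differences between -0.65 and 0.26.

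The remaining effectors were divided. Rtp4, a chaperone that helps receptors reach the cell surface, read 1.04, 2.10, 0.74, 0.70 and 1.26 in tumor YFP+ cells, against 2.60, 2.77 and 2.63 in normal YFP+ cells. It read 1.68, 2.11, 2.63, 1.22 and 0.98 in tumor YFP- cells, against 3.13, 3.48 and 3.34 in normal YFP- cells. The groups did not overlap, with tumor mouse 23550 nearest to normal in YFP- cells, and the differences were -1.5 ± 0.36 (adjusted p = 0.0124) and -1.59 ± 0.36 (adjusted p = 0.00735).

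Xaf1, a proapoptotic partner of the caspase inhibitor Xiap, read -0.90, -0.53, -1.43, -1.71 and -0.78 in tumor YFP+ cells, against 0.50, -0.16 and -0.20 in normal YFP+ cells. It read -0.68, -0.82, -0.24, -0.93 and -1.45 in tumor YFP- cells, against 0.16, 0.43 and 0.39 in normal YFP- cells. These groups did not overlap either, at differences of -1.12 ± 0.30 (adjusted p = 0.0222) and -1.15 ± 0.30 (adjusted p = 0.0160).

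Isg20 went the other way. This exonuclease of single-stranded RNA read 1.18, 1.07, 1.54, 0.72 and 1.62 in tumor YFP+ cells, against 0.30, 0.07 and -0.42 in normal YFP+ cells. It read 0.55, 0.86, 0.50, 0.52 and 0.50 in tumor YFP- cells, against 0.11, -0.03 and -0.40 in normal YFP- cells. All tumor arrays lay above all normal arrays in both populations. The rise of 1.24 ± 0.23 in YFP+ cells passed (adjusted p = 0.00187), and the difference of 0.69 ± 0.23 in YFP- cells just missed (adjusted p = 0.0507). Its other probe gave 1.21 ± 0.20 (adjusted p = 0.000799) and 0.33 ± 0.20 (adjusted p = 0.273) with each probe tested separately, where the brightest probe passed in YFP- cells too (adjusted p = 0.0499).

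Isg15, Rsad2, Cmpk2, Bst2, Ifitm3, Ifi35, Ifi44 and Trim30a did not pass in either population. Isg15, a ubiquitin-like modifier, differed by -0.05 ± 0.27 in YFP+ and -0.40 ± 0.27 in YFP- cells. Another Isg15 probe differed by 0.33 in YFP+ and -0.67 in YFP- cells, so the direction for Isg15 in YFP+ cells depended on the probe. Rsad2, the antiviral enzyme viperin, differed by 0.21 ± 0.24 and -0.02 ± 0.24. Cmpk2, which lies beside Rsad2 and is a mitochondrial nucleotide kinase, differed by -1.12 ± 0.62 and -1.39 ± 0.62. Its standard error was among the largest of the members, and its arrays overlapped.

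Of each population 3 slides held both tissues, with 1 array of each. Within each of these slides all 11 members called in YFP- cells kept their direction. In YFP+ cells 10 of 11 did, Gbp3 being the exception. For members whose arrays did not overlap between tissues, this direction was fixed in advance. The 7 members lower in both populations are among them, so their negative differences on every such slide say nothing about slides.

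Further genes of the pathway were taken from lists that hold no member. Of 43 other type I targets tested of 44, 13 fell and 2 rose in YFP+ cells, and 19 fell and 1 rose in YFP- cells. Their median difference was -0.52 in YFP+ and -0.68 in YFP- cells, and 36 and 32 of the 43 were negative. Of all genes, 6.52% fell and 5.73% rose in YFP+ cells, and 8.46% fell and 7.62% rose in YFP- cells. Samd9l, a restriction factor that also limits cytokine signalling, fell by 2.82 in YFP+ and by 2.46 in YFP- cells (adjusted p = 1.57e-05 and 3.87e-05), and Pml, the organiser of nuclear bodies, fell by 1.70 in each. Ifitm1 (2.44) and Ifi205 (1.36) rose in YFP+ cells and Slfn1 (1.85) rose in YFP- cells. Of 26 other interferon gamma targets tested of 30, 6 fell and 1 rose in YFP+ cells, and 7 fell and 2 rose in YFP- cells. As a list these 26 lay near all genes. Their median difference was -0.12 in YFP+ and -0.07 in YFP- cells, against -0.07 and -0.19 for all genes. In each population 15 of the 26 were negative, against 56% and 61% of all genes. Tgtp1, an immunity-related GTPase, fell by 1.75 and by 1.83, and Irgm2 by 1.73 and by 1.61, in YFP+ and YFP- cells. Cd274, which encodes the checkpoint ligand PD-L1, rose by 1.89 in YFP+ and by 1.70 in YFP- cells (adjusted p = 0.000202 and 0.000386).

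Receptors of the pathway did not pass. Ifnar1 differed by -0.32 and -0.11, Ifnar2 by -0.36 and -0.33, Ifngr1 by -0.16 and -0.14 and Ifngr2 by 0.29 and 0.60 in YFP+ and YFP- cells (adjusted p = 0.119 or more). Of 18 genes of receptors and Jak and Stat signalling tested of 19, 3 rose and 2 fell in YFP+ cells, and 5 rose and 2 fell in YFP- cells. Those that rose include Socs3, a feedback inhibitor (0.68 and 0.99), and Jak2, the kinase at the interferon gamma receptor (0.84 and 1.17). Socs1, the main inhibitor of that kinase, rose by 1.11 in YFP+ cells (adjusted p = 0.00969).

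Of the 14 ligand genes tested of 22, 0 passed in YFP+ cells, where 7 of 14 were below 0, and 2 fell in YFP- cells, Ifna13 (-1.34) and Ifna5 (-1.13). The ligand genes were dim as a list, with a mean of -3.29 in tumor YFP- and -3.03 in normal YFP- cells. Ifng differed by 0.55 and 0.46 and Ifnb1 by 1.0 and 1.85, and neither passed, Ifnb1 being above background on 0 of 3 arrays of either normal population. Of 19 genes of interferon induction, 1 rose and 2 fell in YFP+ cells, and 2 rose and 4 fell in YFP- cells. Ikbke, a kinase that activates Irf3, rose in both populations (1.22 and 1.32), while the endosomal sensors Tlr7 (-1.37 and -1.79) and Tlr9 (-0.65 and -0.64) fell in both.

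Markers of other cells moved with tissue too. The macrophage markers were above background in every group, 12 of 12, at summed signals of 283 to 379 times the 75th percentile in tumor YFP+ cells, 271 to 409 in tumor YFP- cells, 327 to 420 in normal YFP+ cells and 296 to 550 in normal YFP- cells. Of these 12, 2 fell in YFP+ cells, and 1 rose and 1 fell in YFP- cells. Csf1r differed by -0.38 in YFP+ and -0.76 in YFP- cells and did not pass, and Adgre1, which encodes F4/80, fell by 0.97 and by 1.05. All 10 acinar markers were lower in tumor in both populations. Their sum was 3.35 to 9.17 in tumor YFP+ cells and 321 to 436 in normal YFP+ cells, and 6.81 to 16.3 in tumor YFP- cells and 388 to 857 in normal YFP- cells. All acinar markers were above background on some array of each group.

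Of the 9 ductal markers tested, 4 rose in YFP+ and 7 in YFP- cells, with Cdh1 and Tff1 not above background in normal pancreas. Their sum was 4.41 to 6.61 in tumor YFP+ cells, 17.9 to 30.4 in tumor YFP- cells, 2.60 to 3.66 in normal YFP+ cells and 4.38 to 5.38 in normal YFP- cells. Of the 10 B and plasma cell markers, 6 rose in YFP+ cells, at sums of 42.9 to 73.7 in tumor and 5.49 to 10.4 in normal pancreas, and 5 rose and 1 fell in YFP- cells, at 10.4 to 26.2 in tumor and 5.55 to 9.61 in normal pancreas. Cd79a, a part of the B cell receptor, rose by 4.93 and by 4.62. Of the 9 neutrophil markers tested, 3 rose in YFP+ and 5 in YFP- cells, and their sum was 31.6 to 37.6 in tumor against 31.1 to 47.5 in normal pancreas for YFP+ cells, and 45.1 to 65.6 against 34.0 to 47.4 for YFP- cells. Of the 10 fibroblast markers, 2 rose and 1 fell in YFP+ and 5 rose in YFP- cells, at sums of 6.12 to 12.2 in tumor against 3.5 to 17.1 in normal pancreas for YFP+ cells, and 65.7 to 102 against 6.20 to 69.9 for YFP- cells. Of the 14 T and NK cell markers tested, which cover the sources of interferon gamma, 0 passed in YFP+ cells and 1 rose and 1 fell in YFP- cells, and Cd3e was above background on all 16 arrays. Their sum was 13.03 to 15.3 in tumor against 13.1 to 59.0 in normal pancreas for YFP+ cells, and 9.89 to 36.2 against 15.7 to 17.0 for YFP- cells. Of the 10 markers of plasmacytoid dendritic cells, 2 rose and 2 fell in YFP+ cells and 2 fell in YFP- cells, and Siglech, which microglia and some macrophages also express, differed by -0.05 and -0.31 and did not pass. Their sum was 41.9 to 50.4 in tumor against 43.04 to 56.2 in normal pancreas for YFP+ cells, and 39.5 to 61.8 against 50.8 to 69.6 for YFP- cells. Of the 10 other dendritic cell markers, 2 rose and 2 fell in YFP+ cells and 2 rose and 1 fell in YFP- cells, at sums of 11.7 to 25.4 in tumor against 15.5 to 23.1 in normal pancreas for YFP+ cells, and 7.51 to 16.7 against 5.72 to 16.4 for YFP- cells. Of the 8 endothelial markers 1 rose in each population, at sums of 3.48 to 4.76 in tumor against 2.96 to 4.05 in normal pancreas for YFP+ cells, and 3.17 to 4.97 against 3.59 to 5.14 for YFP- cells. The part of these cells in the differences of the interferon-stimulated genes was not tested.

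Between YFP+ and YFP- cells no member passed in either tissue. In tumor 0 of 39 members passed where 2.41% of all genes did, and in normal pancreas 0 of 39 where 0.0206% did. The members' median difference was 0.01 in tumor and -0.16 in normal pancreas, against 0.00 and -0.11 for all genes. At an unadjusted p under 0.05 there were 3 members in tumor (10.4% of all genes) and 0 in normal pancreas (7.65%). The median standard error of a member was 0.27 in tumor and 0.35 in normal pancreas, so that small differences could not be seen.

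The 3 in tumor were Isg20, Ifit1 and Zbp1. Isg20 averaged 1.23 ± 0.37 in tumor YFP+ cells and 0.59 ± 0.15 in tumor YFP- cells (SD, n = 5 each; difference 0.64 ± 0.20, adjusted p = 0.140). Ifit1 had a difference of 0.89 ± 0.38 (adjusted p = 0.402) and was above background on 5 of 5 tumor YFP+ and 1 of 5 tumor YFP- arrays. Zbp1 had a difference of 0.39 ± 0.17 (adjusted p = 0.450). Arrays of the populations overlapped for all 3. The arrays overlapped for all 39 members in tumor, where 2.88% of all genes lay wholly lower and 1.53% wholly higher in YFP+ cells. In normal pancreas Mx2 and Rtp4 lay wholly lower in YFP+ cells (7.11% of all genes), and 0 members lay wholly higher (6.14%).

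The members' differences between populations were also mixed within a mouse. The number of members higher in YFP+ than in YFP- cells was 17, 22, 12, 17 and 28 of 39 in tumor mice 23547, 23548, 23550, 23551 and 23677, and 24, 19 and 7 of 39 in normal mice 23912, 23916 and 23917. The same counts over all genes were not made. The median over the members ran from -0.35 in mouse 23550 to 0.30 in mouse 23677 among tumor mice. Over all genes the median was 0.06 and -0.17 in these mice. Among normal mice the members' median ran from -0.32 in mouse 23917 to 0.16 in mouse 23912, against -0.0008 and -0.15 over all genes. The difference between the YFP differences of tumor and normal pancreas passed for 0 members (0.103% of all genes) and for 0 at an unadjusted p under 0.05 (5.96%), with a median of 0.06 against 0.05 for all genes.

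The median SD between mice of a group was 0.44 over the members and 0.43 over all genes. It was 0.51 for the type I type, 0.42 for the interferon gamma type, 0.50 for signalling and feedback, 0.28 for the sensors and 0.36 for the other effectors. Mx1 (0.92), Cmpk2 (0.91) and Oas3 (0.79) varied most, and Ifi47 (0.19), Irf1 (0.22) and Dhx58 (0.25) least. These spreads are of the brightest probe of a gene. By that probe the fall of Irf1 thus passed at a small size, whereas the larger differences of Cmpk2 and Oas3 in YFP+ cells did not pass. The second Irf1 probe, described above, gave a larger difference.

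In tumor YFP+ cells mouse 23548 gave the highest of the 5 values for 25 of the 39 members and mouse 23551 the lowest for 19. In tumor YFP- cells mouse 23548 was highest for 15 and mouse 23550 for 14, and mouse 23677 was lowest for 16 and mouse 23551 for 14. In normal YFP+ cells mouse 23916 was highest for 24 and mouse 23917 lowest for 26, and in normal YFP- cells mouse 23916 was highest for 17 and mouse 23912 lowest for 23. The mean of the type I type list was lowest in mouse 23551 in both tumor populations, at -2.13 in YFP+ and -2.12 in YFP- cells, and highest in mouse 23548 in YFP+ (-1.16) and mouse 23547 in YFP- cells (-1.24). Values on an array share its scaling and RNA, so members are not independent of each other. How often each array was highest or lowest over all genes was not counted. These counts therefore cannot show whether a mouse stood apart in the members more than in other genes.

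**Figure D4:**
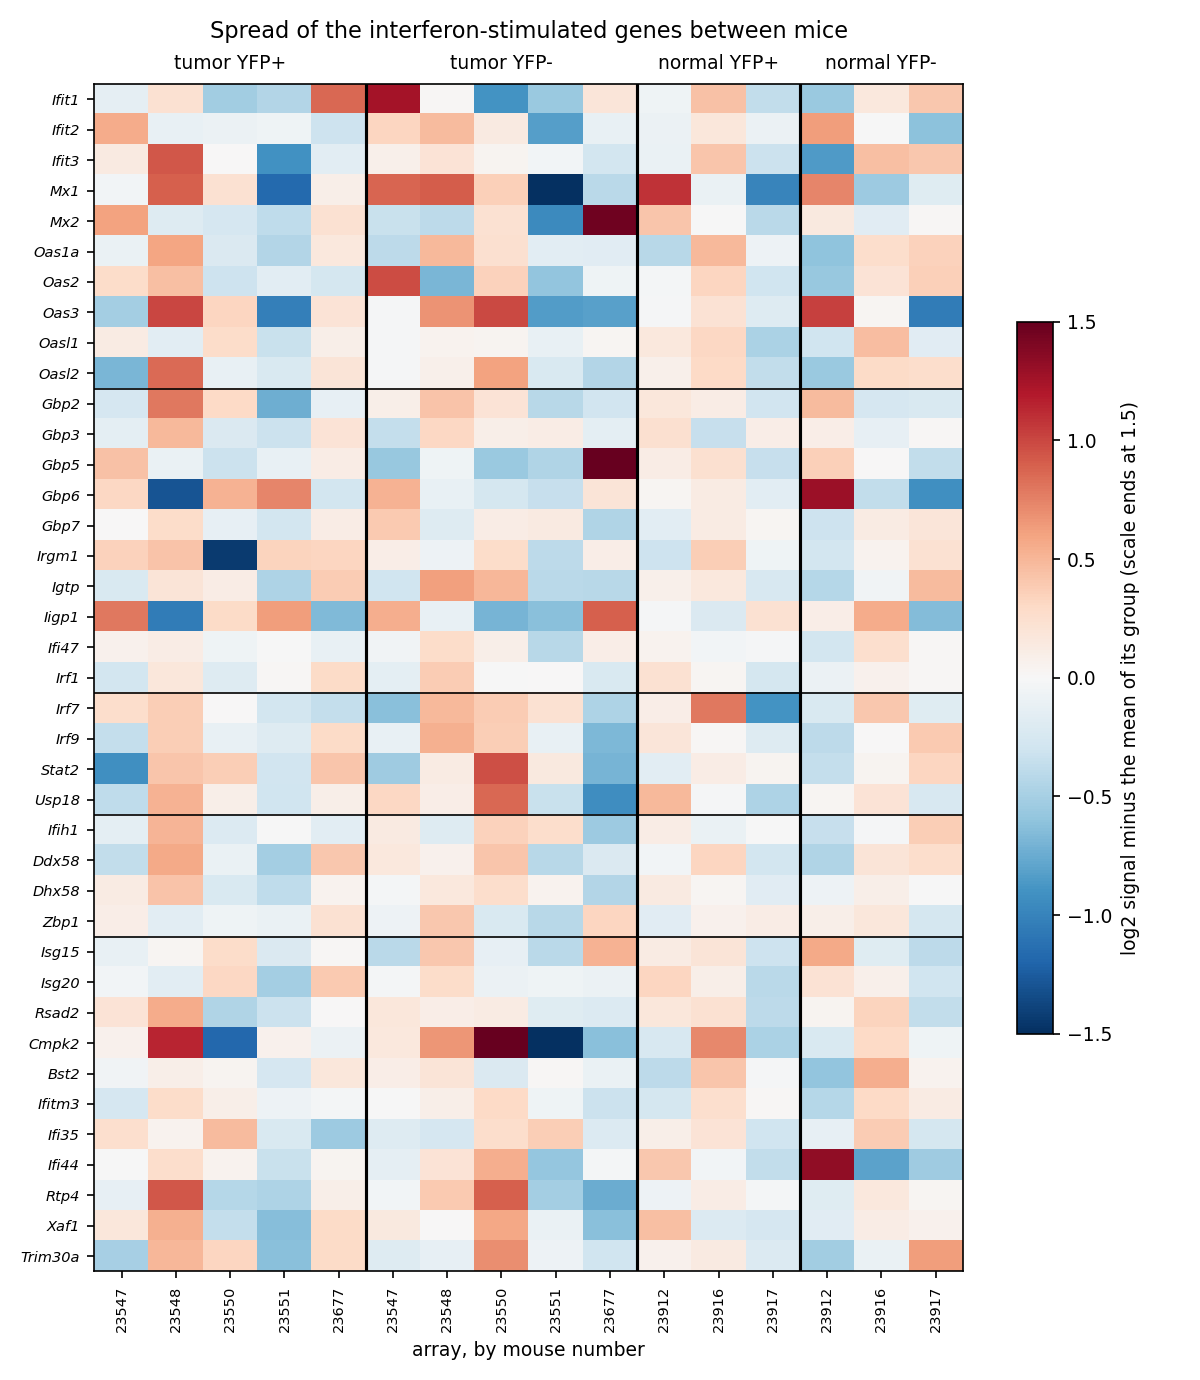
Log2 signal of each of the 39 interferon-stimulated genes (rows, by role) on each of the 16 arrays (columns, by mouse number) minus the mean of its group, on a color scale that ends at 1.5. In tumor YFP+ cells mouse 23548 is mostly above its group and mouse 23551 mostly below it, and in normal YFP+ cells mouse 23917 is mostly below.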

How the data were processed

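Red-channel intensity values came from the deposited scanner files, made with Agilent Feature Extraction 11.5.1.1 per the submitters' processing notes; per the file headers, this signal had background and a spatial trend removed. The deposited log2 values of the series table, which the authors normalized by steps not given in the sources used here, served as an alternative. From the intensity, outlier spots were left out, the 75th percentile of each array was subtracted on the log2 scale, and probes well above background on at least 3 of 16 arrays were kept (30602 probes). Between 14.6% and 24.1% of the spots of an array lay at a floor value. The brightest probe stood for a gene; names were updated by accession for 28330 of 39429 probes.

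Genes were tested with limma 3.58.1 in R 4.3.3 (4 group means over 16 arrays, Benjamini-Hochberg over 24307 genes, threshold 0.05), and the fit was tested on simulated data. The labels do not say that samples are separate cultures or animals beyond the number in a title, so p-values measure the spread between these samples. Members and lists were chosen with earlier results of these data known. Named are all members, other listed genes past the threshold, the receptors, Ifng, Ifnb1 and defining cell markers; some genes of these lists are not reported here. Alternatives covered background correction, normalization, filter, probes, slide, mouse, array weights and single arrays.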

Additional observations from a re-analysis of the deposited data

Results flagged for a closer look

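Among the 88 sets of 5 tumor values examined (39 members and 5 list means in 2 populations), 6 held an array far from the others, where chance marks about 1 in 20. In tumor YFP+ cells Irgm1 was lowest in mouse 23550, at -2.49 against -0.73 for the next array. Ifit2 was highest in mouse 23547, at -3.74 against -4.36, and Ifih1 in mouse 23548, at 0.64 against 0.13. In tumor YFP- cells Gbp5 was highest in mouse 23677, at 4.08 against 2.37 for the next array. Isg20 was highest in mouse 23548, at 0.86 against 0.55, and Trim30a in mouse 23550, at 0.57 against -0.20. Of these genes Isg20 is the one that passed in a tissue comparison, and it did so in YFP+ cells, where none of its arrays stood apart.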

How the results depend on the processing

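Members called in a tissue comparison kept their direction in all 9 other settings and all 16 fits without 1 array. Past the threshold in all 9 were Ifit3, Mx1, Oas2, Irf1, Irf9, Usp18, Isg20, Rtp4 and Xaf1 in YFP+ cells, and Ifit3, Oas2, Igtp, Irf1, Usp18, Dhx58, Rtp4 and Xaf1 in YFP- cells. In all 16 these were Oas2, Usp18 and Isg20 in YFP+ cells, and Ifit3, Oas2 and Rtp4 in YFP- cells. No member passed a YFP or interaction comparison in any of them. With array weights 17 members fell in YFP+ and 21 in YFP- cells, and 4498 and 9322 genes passed. Isg20 made 1 riser in YFP- cells, against 0, with quantile normalization, deposited values, the stricter filter and array weights. The interferon gamma type median was -0.78 in YFP+ and -0.77 in YFP- cells with probes averaged, and -0.43 in YFP- cells with normexp, where the spreads were 0.42 (type I type) and 0.34. The median of all genes in YFP- cells was -0.19, against 0.06 with normexp. The YFP comparison in normal pancreas called 5 genes, against 0 with normexp, 16 with quantile normalization, 15 with deposited values, 10 without the filter, 2 with the slide block and 1150 with array weights, and the interaction called 25, against 8 with the slide block and 352 with array weights. The causes were not tested.

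Leaving out 1 array gave 4 to 11 members lower in YFP+ cells, 5 to 12 lower and 0 to 1 higher in YFP- cells, 2429 to 4805 genes in YFP- cells, 0 to 338 genes for YFP in normal pancreas (338 without the YFP- array of mouse 23912) and 9 to 70 for the interaction. The interferon gamma type median ran from -0.016 to 0.19 for YFP in tumor and from -0.17 to -0.012 in normal pancreas, and its spread from 0.35 to 0.44.

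With the mouse number as a replicate block, 10 and 11 members fell in YFP+ and YFP- cells, as without it. The correlation within a mouse used for these tissue comparisons was 0.0288, so this fit could hardly differ from the main one. The YFP and interaction comparisons instead had the mouse as a fixed term. There the normal YFP comparison called 0 genes and the interaction 16. Deviations of same-numbered arrays correlated at -0.29 to 0.314. Arrays of different numbers were not compared in this way, so these values cannot decide whether the number is the mouse.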
